A study of Arabidopsis thaliana with 4 samples.

Results

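The genes described here are those whose transcripts lay toward the lower flank of the stem at 10 min of gravistimulation and toward the upper flank at 30 min. They were picked from the flank ratios themselves. A probe entered if both of its channels were well above background on all 4 arrays, if the log2 ratio of lower over upper flank was at least 0.1 on both 10 min arrays, and if it was at or below -0.1 on both 30 min arrays. Genes of the BT, NIA, LHC, PSA, PSB, CER and KCS families and 3 further loci were left out by name. The rule kept 157 probes for 157 distinct loci, out of 18192 probes well above background and 21500 gene probes in all, which is 0.863% of the former. The exclusions by name had removed 5 of 162 probes, for NIA1, NIA2, BT2, AT1G78170 and AT1G64370. Because every flank ratio was used in the choice, all flank values below are a description and carry no test.

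The samples were inflorescence stems of Arabidopsis thaliana, ecotype Col, whose primary stems were 4 to 8 cm long. The plants were laid on their side for 10 or 30 min at 23 °C in dim light that came from no fixed direction, the top 5 mm was discarded, and the following 3 cm was split by hand along its length. Lower and upper flank shared each 2-colour Agilent array, with 2 arrays per time and the dyes swapped between them (the lower flank was labelled with Cy5 on replicate 1 and with Cy3 on replicate 2). By the labels the swapped arrays are biological replicates, while the labelling protocol has each cRNA labelled with both dyes in separate reactions, so the spread behind the p-values may be technical. The samples used here held no unstimulated stem, and no mutant or treatment other than gravistimulation was compared.

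A stem laid on its side bends upward because its lower flank elongates more. Starch-filled plastids settle in the endodermis, the layer that senses gravity in shoots, and the hormone auxin is moved toward the lower flank, where it induces early response genes and is followed by loosening of the cell wall. Transcripts that are higher in the lower flank first and in the upper flank later are not a known pathway. The members came from nitrogen and metal transport, wall enzymes, photosynthesis and carbon use, transcription factors, receptor kinases and stress proteins. These groups, and the genes named in them beyond the rule for named genes, were put together after the values were seen.

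Values are log2 of lower over upper flank from the deposited processed signals, minus each array's median, so a positive value means higher in the lower flank. The threshold of 0.1 equals 1.07-fold. For the 157 members, the mean of the 10 min arrays had a median of 0.193 (1.14-fold toward the lower flank) and ranged from 0.103 to 0.959. The mean of the 30 min arrays had a median of -0.239 (1.18-fold toward the upper flank) and ranged from -0.757 to -0.114. The switch, defined as the 10 min mean minus the 30 min mean, had a median of 0.431 and ran from 0.242 to 1.46. It exceeded 0.5 in 58 members and 1 in 2 members. In 113 members the ratio at 30 min was the larger of the pair in size, and in 44 that at 10 min. Most ratios were small, and few members stood well clear of the rest.

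**Figure D1:**
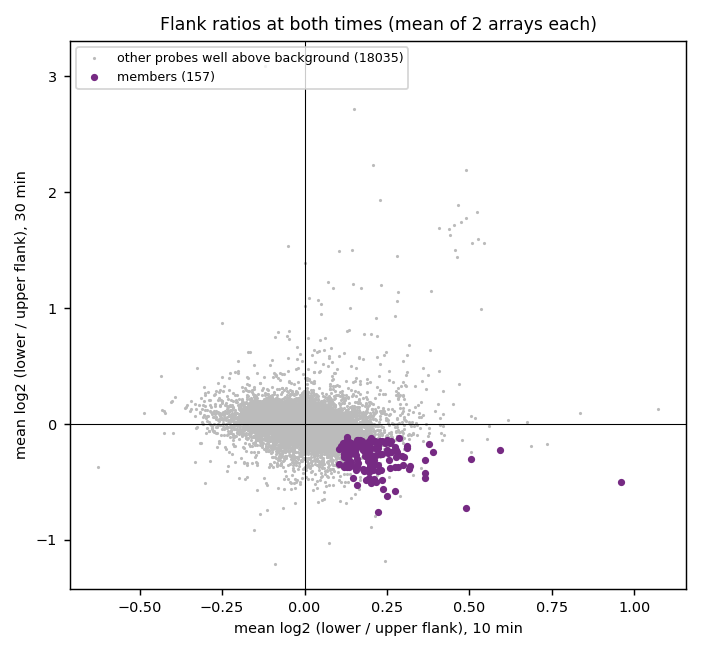
Mean log2 ratio of lower over upper flank at 10 min (x axis) and at 30 min (y axis), each the mean of 2 arrays, for probes well above background on all arrays. The 157 members (purple) fill the lower right quadrant by construction, and NRT1.5 lies far to the right at 0.959 on the 10 min axis.

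The ratios of the 2 arrays of a time went together across the dye swap at 30 min but not at 10 min. Over the 18192 probes well above background, they correlated at 0.397 at 30 min and at -0.122 at 10 min. Between times the sign of the correlation went with the dye. It was 0.257 and 0.265 where the lower flank had the same dye. With the dye swapped, it was -0.387 (first 10 min, second 30 min array) and -0.361 (second 10 min, first 30 min array). By the same thresholds, 215 probes (1.18%) were brighter in Cy5 on all arrays and 293 (1.61%) in Cy3, against 162 (0.891%) with the switch before exclusions. The opposite switch, from upper flank at 10 min to lower flank at 30 min, was met by 134 probes (0.737%), the lower flank at both times by 97 and the upper flank at both times by 32. The switch asks for the same flank on both dye orientations of a time. The median gap between the 2 arrays of a time was 0.0608 at 10 min and 0.0675 at 30 min for members, against 0.0994 and 0.0976 for all probes well above background, and agreement within a time was part of the rule.

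The rule was also applied to 3 arrays at a time, and the ratios on the remaining array were then read. Of 343 probes that met it without the first 10 min array, 45.8% passed the threshold on that array, against 16.7% of all probes well above background. Of 349 that met it without the second 10 min array, 45.0% passed there, against 17.6%. Of 224 and 244 that met it without the first and the second 30 min array, 70.1% and 64.3% passed, against 19.8% and 19.5%. The held-out ratio lay on the side of 0 that the rule asks for in 79.3% and 77.7% of probes at 10 min and in 88.8% and 88.5% at 30 min. The probes that passed were each time the 157 members themselves, so the shares are no separate support for them. All probes well above background are not a matched base, since they were not picked on the other arrays. These shares describe the arrays and were not tested, and the 10 min arrays gave the lower ones.

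At the edge of the rule, values of members and of genes just left out were alike. TGA4 was a member with a smallest ratio of 0.1012 in size, AAP1 with 0.1013 and AT2G34930 with 0.1017. VPS2.3 was left out with 0.0999, the phenylalanine ammonia-lyase gene PAL2 with 0.0998 and the amino acid transporter gene LHT1 with 0.0996.

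The largest switch was that of NRT1.5 (AT1G32450), a transporter known for loading nitrate into the xylem of the root. Its ratio was 0.975 and 0.943 on the 10 min arrays and -0.553 and -0.442 on the 30 min arrays. This was 1.94-fold toward the lower flank and then 1.41-fold toward the upper flank. The processed signal of the lower flank was 529 and 452 at 10 min and 172 and 200 at 30 min, while that of the upper flank stayed between 235 and 272 on the 4 arrays. Processed signals are scaled within an array only, and by them the turn of the ratio lay mostly in the lower flank.

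A second member of the peptide and nitrate transporter family was NRT1:2, a low-affinity nitrate transporter that also carries abscisic acid. Its ratios were small, at 0.11 and 0.12 and then -0.16 on both arrays. In that family 41 probes were well above background, 2 were members, and the family medians were 0.035 at 10 min and -0.067 at 30 min, and NRT1.5 had the highest 10 min and the lowest 30 min mean of the family.

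Amino acid permeases, which import amino acids into cells along a proton gradient, gave 3 members among 8 genes. AAP2, which moves amino acids between xylem and phloem in the stem, read 0.13 and 0.14 at 10 min and -0.40 and -0.34 at 30 min. Its spots were marked as outliers on every array. AAP1 read 0.10 and 0.14, then -0.28 and -0.24. AAP5 read 0.17 and 0.12, then -0.23 and -0.19. All 3 switched by less than NRT1.5, and in each the 30 min ratio was the larger. Among the other 5 genes, AAP4 had the same signs on every array (0.09, 0.22, -0.16 and -0.03), while AAP6 lay toward the lower flank throughout (0.15 to 0.21). The list of nitrate and ammonium assimilation genes, on which NIA1, NIA2 and BT2 did not stand, held no member among 11 probes. Of these, 1 passed toward the lower flank at 10 min and 4 toward the upper flank at 30 min, and the list medians were 0.049 and -0.09.

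Metallothioneins are small cysteine-rich proteins that bind metal ions. MT1A read 0.42 and 0.31 at 10 min and -0.36 and -0.57 at 30 min. Its neighbour MT1C read 0.42 and 0.31, then -0.18 and -0.66. The processed signals of MT1A lay between 8188 and 14133 in all channels, those of MT1C between 107 and 228. The 2 genes lie next to each other and are similar in sequence, so the dim MT1C probe can take up MT1A transcript and the pair is not counted as separate evidence.

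MT3, on another chromosome, read 0.29 and 0.16, then -0.16 and -0.26. Of the other 2 metallothioneins, MT2B was at 0.44 and 0.31 at 10 min but missed the rule at 30 min (-0.02 and -0.14), and MT2A lay between -0.071 and 0.059 on every array. The manganese transporter NRAMP1 read 0.39 and 0.20, then -0.20 and -0.36. The switch of MT1A (0.831) and that of NRAMP1 (0.575) lay above the members' median of 0.431, and that of MT3 was at it.

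**Figure D2:**
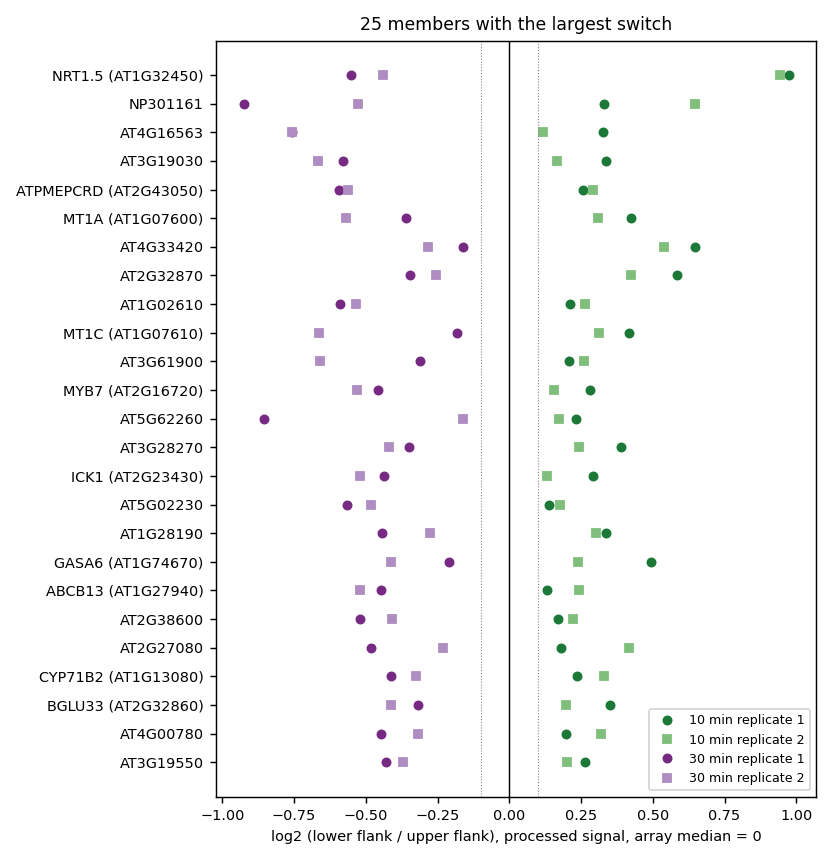
Log2 ratio of lower over upper flank (x axis, processed signal, array median at 0) on each array for the 25 members with the largest switch. Green symbols are the 10 min arrays and purple symbols the 30 min arrays, circles replicate 1 and squares replicate 2, and the dotted lines mark the thresholds of 0.1 and -0.1. NRT1.5 stands apart at 10 min, and NP301161, AT5G62260, MT1C and AT3G61900 show wide gaps between their 30 min arrays.

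Behind NRT1.5 came NP301161, an array sequence annotated as like an Athila retroelement protein, which read 0.33 and 0.65, then -0.93 and -0.53. AT4G16563, an aspartyl protease family gene, read 0.33 and 0.12, then -0.76 on both arrays, the lowest 30 min mean among members (-0.757). AT3G19030, of unknown function, read 0.34 and 0.17, then -0.58 and -0.67. The arrays of a time lay far apart for NP301161 and close together for AT4G16563 at 30 min. NP301161 has no entry in the RefSeq gene table used for names, and neither has the member TC259244.

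The AT hook gene AT5G62260 shows how a large switch can rest on 1 array, with -0.86 on the first 30 min array and -0.16 on the other. Its processed signals were among the dimmest, at 65.3 to 125. Among the 10 members whose smallest ratio was largest in size, and which therefore depended least on the threshold, were NRT1.5, NP301161, MT1A, AT2G32870, AT3G28270, AT1G28190, CYP71B2, XTR6, AT3G45160 and the pectinesterase AT2G43050.

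Further members with large switches were enzymes or proteins of unknown function. AT3G28270, similar to the At14a protein, read 0.39 and 0.24, then -0.35 and -0.42. CYP71B2, a cytochrome P450, read 0.24 and 0.33, then -0.41 and -0.33. AT5G02230, a haloacid dehalogenase-like hydrolase, read 0.14 and 0.18, then -0.57 and -0.48. The first 2 were of nearly equal size at both times, and AT5G02230 was carried by its 30 min ratios. AT4G00780, a MATH domain protein, read 0.20 and 0.32, then -0.45 and -0.32. AT3G45160, of unknown function and among the bright members, read 0.24 and 0.27, then -0.35 and -0.27. The probes of AT1G24996, AT1G17990 and MAPR2 each name several loci, so their values cannot be assigned to 1 gene.

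Wall enzymes lay on both sides of the size range. Pectinesterases remove methyl groups from pectin. AT2G43050 read 0.26 and 0.29, then -0.59 and -0.56. The much brighter PMEPCRF (AT5G53370), whose spots were marked as outliers on all 4 arrays, read 0.25 and 0.10, then -0.33 and -0.45. These 2 genes were the only members among 35 pectinesterase probes, whose medians were 0.019 and -0.025.

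Xyloglucan endotransglucosylases cut and rejoin the xyloglucan chains that tether cellulose. XTR6 read 0.27 and 0.33, then -0.25 and -0.32. XTH4, the brightest of them, read 0.15 on both 10 min arrays (0.151 and 0.155) and -0.37 on both 30 min arrays. Its spots were marked as outliers on both 30 min arrays. XTH6 read 0.18 and 0.11, then -0.24 and -0.26. These were 3 of 24 enzymes of the family, and the family ranged from -0.405 to 0.454 at 30 min, so its genes did not share 1 side. Of the list of wall-loosening enzymes, 17 probes in all, XTH4 and XTH6 were members, 4 probes passed 0.1 toward the lower flank at 10 min, 7 passed toward the upper and 3 toward the lower flank at 30 min.

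BGAL4, a beta-galactosidase, read 0.19 and 0.12, then -0.41 and -0.38. AT4G33420, a class III peroxidase, had a larger ratio at 10 min (0.65 and 0.54) than at 30 min (-0.16 and -0.29). It was the only member among 42 peroxidase probes. CYP86A2, which hydroxylates fatty acids for cutin, read 0.17 and 0.11, then -0.22 and -0.29.

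Hormone-related members were few. AT3G61900, a relative of the SAUR genes that auxin induces, read 0.21 and 0.26, then -0.31 and -0.66. The ABCB subfamily of transporters includes carriers of auxin. ABCB13 read 0.13 and 0.24, then -0.45 and -0.52. ABCB21, which transports auxin, read 0.15 and 0.26, then -0.34 and -0.29. They were 2 of 22 ABCB probes, with family medians of -0.016 and -0.032. GASA6, a gibberellin-responsive gene for a small cysteine-rich protein, read 0.49 and 0.24, then -0.21 and -0.41. In contrast, the list of early auxin response genes held no member among 22 probes. Of these, 12 passed 0.1 toward the lower flank on both 10 min arrays and 19 on both 30 min arrays, with medians of 0.26 and 0.28 on the 10 min arrays and 1.449 and 1.5 on the 30 min arrays.

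Among growth regulators, ICK1 (also called KRP1), an inhibitor of cyclin-dependent kinases, read 0.29 and 0.13, then -0.44 and -0.52. MYB7, an R2R3 MYB factor of phenylpropanoid genes, read 0.28 and 0.16, then -0.46 and -0.53. In both the 30 min ratios were the larger and close together. COL2, a CONSTANS-like zinc finger protein, leaned the other way in size, with 0.30 and 0.33, then -0.26 and -0.12. KNAT4, a class II KNOTTED-like homeobox protein, read 0.11 and 0.13, then -0.40 and -0.35. MIF1, a small zinc finger protein, read 0.16 and 0.17, then -0.36 and -0.31. Further transcription factors with smaller switches were NAP, a NAC factor of leaf senescence, WRKY25, the bZIP factors TGA4 and bZIP58, the MADS-box gene AGL71 and the MYB-related MYBC1 and MYR1, whose 10 min means lay between 0.157 and 0.275 and whose 30 min means lay between -0.291 and -0.145. Genes of the PLATZ zinc-binding family gave 2 members among 6 (AT1G21000 and AT1G32700), and the whole family had a 30 min mean below 0, with a median of -0.304 against 0.003 at 10 min. The share of all probes with a 30 min mean below 0 was not counted.

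Several members serve photosynthesis and carbon use. Carbonic anhydrases interconvert carbon dioxide and bicarbonate. CA1, the chloroplast enzyme, read 0.20 and 0.26, then -0.32 and -0.20. BCA4 read 0.11 and 0.18, then -0.27 and -0.20, and BCA3 0.10 and 0.19, then -0.28 and -0.19. Of 10 carbonic anhydrases above background, 8 had a 10 min mean above 0 and 9 a 30 min mean below 0. These counts go by the sign of the means alone, and the share over all probes was not counted. They include ACA6 (0.338 and -0.017, then 0.07 and -0.164), which was brighter in Cy5 on every array, and ACA1 (0.235 and 0.011, then 0.018 and -0.237). BCA6 had the signs of the members on all arrays and missed the threshold on 1, and CA2 had them and missed it on 2.

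RBCS2B, a small subunit of Rubisco and the brightest member, read 0.22 and 0.24, then -0.18 and -0.11, and its probe can take up transcripts of the near-identical RBCS genes beside it. Its spots were marked as outliers on every array. CP12-2, which binds Calvin cycle enzymes, read 0.19 on both 10 min arrays and -0.14 and -0.17 at 30 min. CT-BMY, a chloroplast beta-amylase that degrades starch, read 0.12 on both 10 min arrays, then -0.22 and -0.17. TPPH, which removes the phosphate from trehalose 6-phosphate, read 0.13 and 0.12, then -0.37 and -0.38. RBCS2B was the member among 16 Calvin cycle probes, where 4 passed toward the lower flank at 10 min and 1 toward the upper flank at 30 min.

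Calcium and stress genes were represented by a pair of neighbours and by unlinked genes. TCH3, a calmodulin-like protein induced by touch, read 0.18 and 0.22, then -0.17 and -0.11, and the adjacent calmodulin-like gene AT2G41090 read 0.17 and 0.25, then -0.19 and -0.10. AT5G01820, the calcium-sensor-regulated kinase CIPK14 (SR1 in the RefSeq table), read 0.13 and 0.16, then -0.46 on both arrays. TCH3 was the 1 member among 15 probes of the touch and rapid stress list, whose medians were -0.059 and -0.01.

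Late embryogenesis abundant proteins protect cells from drying. LEA14 read 0.13 and 0.14, then -0.32 and -0.27. EM1 read 0.21 and 0.18, then -0.35 and -0.33. SAG21 had means of 0.173 and -0.145, and the cystatin CYSA, an inhibitor of cysteine proteases, read 0.48 and 0.27, then -0.15 and -0.19. The separate list of cold and dehydration proteins held no member among 12 probes, with 0 passing toward the lower flank at 10 min and 6 toward the upper flank at 30 min.

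Genes for proteins with domain PF01657, found in cysteine-rich receptor-like kinases, gave 4 members among 22. AT3G21920 and AT3G21930 lie side by side and read 0.31 and 0.21, then -0.29 and -0.18, and 0.25 and 0.17, then -0.26 and -0.42. AT3G22060 read 0.22 and 0.19, then -0.37 and -0.33. HWI1 read 0.12 and 0.13, then -0.25 and -0.20. Most relatives around AT3G21920 were not members, and the medians of all 22 were 0.032 and -0.063. The kinase genes PSY1R, which encodes a receptor for a growth-promoting sulfated peptide, and LRR XI-23 had 10 min means of 0.161 and 0.152 and 30 min means of -0.14 and -0.237.

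ATG8 proteins coat the membranes of autophagosomes. ATG8H read 0.11 and 0.14, then -0.22 and -0.26. ATG8F read 0.12 and 0.15, then -0.22 and -0.13. Only these 2 of 9 genes met the rule. All 9 had a 10 min mean above 0 (0.015 to 0.141) and a 30 min mean below 0 (-0.294 to -0.05). This goes by the sign of the means alone, and the share over all probes was not counted. ATG8C read 0.19 and -0.045, then 0.043 and -0.205, so it was brighter in Cy5 on every array, while the other genes kept the members' signs.

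By place, members numbered 46, 28, 26, 21 and 34 on chromosomes 1 to 5. There were 12 pairs with at most 5 genes between them, against 5 pairs in the 134 probes with the opposite switch. Adjacent pairs numbered 5, namely MT1A with MT1C, MIF1 with GASA6, BGLU33 with AT2G32870, AT2G41090 with TCH3, and AT3G21920 with AT3G21930, against 2 in the opposite switch. Members of the pair MIF1 and GASA6 are not related in sequence family, while MT1A with MT1C, TCH3 with AT2G41090 and the PF01657 pair are. BGLU33, a family 1 glycosyl hydrolase, read 0.35 and 0.20, then -0.32 and -0.41, and its neighbour AT2G32870, with a MATH domain, read 0.58 and 0.43, then -0.35 and -0.25. The 2 sets differ in size (157 and 134 loci), and only the members had exclusions by name. Pairs over all probes were not counted, and the number of pairs was not tested. The median signal of members, as log2 of the processed signal, was 10.55 against 10.61 for all probes well above background, and 78 of the 157 lay above that median, so members were of ordinary brightness. No member had a saturated spot and 7 had spots marked as outliers.

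Markers of tissues that hand-cut flanks can hold in unequal shares were read beside the members. The green cortex list and the phloem and cambium list had medians above 0 on both 10 min arrays and below 0 on both 30 min arrays. The endodermis list had the same signs with smaller medians. The 16 probes of the green cortex list, mostly light-harvesting and Calvin cycle genes, had median ratios of 0.068 and 0.077 at 10 min and -0.149 and -0.127 at 30 min; 3 passed 0.1 toward the lower flank at 10 min and 6 passed toward the upper flank at 30 min, and CA1 was a member. The 8 phloem and cambium probes had medians of 0.09 and 0.131, then -0.154 and -0.16; 2 passed at 10 min, 4 at 30 min, and the phloem lectin PP2-A1 was a member (0.23 and 0.18, then -0.44 and -0.36). The 23 probes of the epidermis and cuticle list (-0.016 and -0.038, then -0.144 and -0.158) and the 12 of the xylem and fibre list (-0.006 and 0.042, then -0.153 and -0.104) held no member and had medians clearly below 0 at 30 min only. In these lists 12 of 23 and 6 of 12 probes passed toward the upper flank at 30 min, and 0 passed toward the lower flank at 10 min. Endodermis markers (5 probes) had medians of 0.006 and 0.022, then -0.081 and -0.002, and 0 passed the threshold toward either flank at either time. In such bulk tissue, fewer cells of a type and less RNA per cell cannot be told apart, and the part of tissue shares in the members' ratios was not tested.

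The average level of both flanks is a measure that the flank ratios do not contain, and its change from 10 to 30 min was tested. Both channels' log2 signals were averaged after background correction, loess and scaling between arrays, and the 2 arrays of each time were compared with limma over 19151 probes, with an adjusted p (Benjamini-Hochberg) under 0.05 as the call. Of the 157 members 152 were tested, and 5 (PMEPCRF, XTH4, AAP2, RBCS2B and MAPR2) were not because of outlier spots. The level had changed in 37 members, or 24.3%, against 3.95% of all probes tested (756) and 4.17% of the 18071 tested probes well above background on all arrays. It was lower at 30 min in 31 members (20.4%, against 2.43% of all probes tested and 2.57% of those well above background) and higher in 6 (3.95%, against 1.51% and 1.6%). The median change of the 152 members was -0.173 on the log2 scale, against 0.0426 for all probes well above background, and 74.3% of members lay below 0, against 41.7%. Of the 134 probes with the opposite switch, 10 were called, 3 lower and 7 higher, with a median of 0.141. The difference between these groups of genes was not itself tested.

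**Figure D3:**
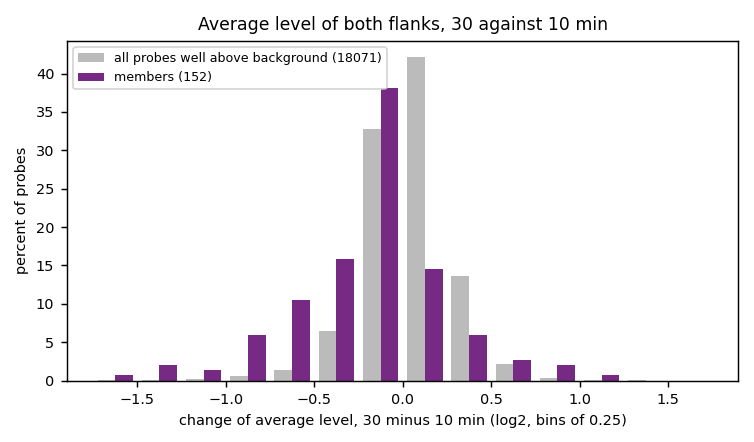
Change of the average level of both flanks from 10 to 30 min (x axis, log2, bins of 0.25) as a percentage of probes (y axis), for the 152 members tested and the 18071 probes well above background. The members' bars lie further to the left, with a median of -0.173 against 0.0426.

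Within either pair of arrays with like local background, the members' median lay below that of all probes. The pairs reuse the arrays of the level test, the pairing was added after seeing the data, and these differences were not tested. Between the 10 min and 30 min arrays of dimmer local background the members' median was -0.147 (all probes 0.0636), and between those of brighter local background it was -0.205 (0.00877).

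Among stress and calcium genes, LEA14 had the largest fall. Its average level was 10.89 and 10.91 at 10 min and 9.41 and 9.24 at 30 min, a change of -1.58 ± 0.09 (SE, n = 2 arrays per time, limma adjusted p = 0.0021). TCH3 stood at 11.40 and 11.44, then 10.31 and 10.14 (-1.19 ± 0.09, limma adjusted p = 0.00511). Both genes were bright and lower by over 1 on the log2 scale. CIPK14 (SR1) fell by 0.77 (SE 0.07), CYSA by 0.76 (SE 0.12) and SAG21 by 0.63 (SE 0.09), with limma adjusted p-values of 0.012, 0.0382 and 0.031. EM1 (0.36 ± 0.12, adjusted p = 0.162) and the TCH3 neighbour AT2G41090 (-0.20 ± 0.07, adjusted p = 0.169) did not pass.

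In carbon use, CT-BMY went from 9.91 and 9.87 to 8.34 and 8.57 (-1.44 ± 0.10, limma adjusted p = 0.00453). BGAL4 fell by 0.86 (SE 0.09, limma adjusted p = 0.015), from 9.01 and 9.06 to 8.26 and 8.09. BETA-OHASE 2, which hydroxylates carotene, fell by 0.76 (SE 0.08, limma adjusted p = 0.0157). The carbonic anhydrases did not pass, with changes of 0.02 ± 0.14 for CA1, -0.02 ± 0.11 for BCA3 and 0.10 ± 0.17 for BCA4. CP12-2 (-0.18 ± 0.08) did not pass either.

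Other members with strong declines were regulatory or of unknown function. AT2G27080, related to harpin-induced proteins, stood at 7.75 on both 10 min arrays and at 6.44 and 6.4 at 30 min (-1.33 ± 0.07, limma adjusted p = 0.00202). AT1G02610, a RING finger gene, stood at 7.36 and 7.29, then 6.31 and 6.3 (-1.01 ± 0.07, limma adjusted p = 0.00511). AT1G12320, of unknown function, fell by 0.95 (SE 0.08, limma adjusted p = 0.00648). Of the receptor and defence genes, LRR XI-23 fell by 0.81 (SE 0.07) and AT2G34930, with leucine-rich repeats, by 0.84 (SE 0.08), with limma adjusted p-values of 0.00989 and 0.0116. Transcription factors called lower included KNAT4 (-0.52 ± 0.07), bZIP58 (-0.53 ± 0.07) and NAP (-0.48 ± 0.07), with limma adjusted p-values of 0.0277, 0.0273 and 0.0315. The peroxidase AT4G33420 (-0.50 ± 0.07, limma adjusted p = 0.0305) and AT2G38600, an acid phosphatase (-0.62 ± 0.08, limma adjusted p = 0.0228), were called as well, and both lost the call when 1 array was left out (adjusted p = 0.175 and 0.0611 without the first 10 min array).

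Members called higher at 30 min were 6. APS4, an ATP sulfurylase that starts sulfate assimilation, rose from 8.77 and 8.74 to 9.76 and 9.93 (1.09 ± 0.09, limma adjusted p = 0.00674). GASA6 rose from 8.77 and 8.75 to 9.73 and 9.44 (0.83 ± 0.11, limma adjusted p = 0.0254, and 0.0507 without the filter on dim probes). AT1G73600, a phosphoethanolamine N-methyltransferase of choline synthesis, rose by 0.78 ± 0.10 and NIT4, a nitrilase that acts on cyanoalanine, by 0.75 ± 0.10. AT2G25450, an oxoglutarate-dependent dioxygenase, rose by 0.73 ± 0.07. AT1G33840 rose by 0.61 ± 0.08 (limma adjusted p = 0.0244, and 0.0762 without the first 10 min array).

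**Figure D4:**
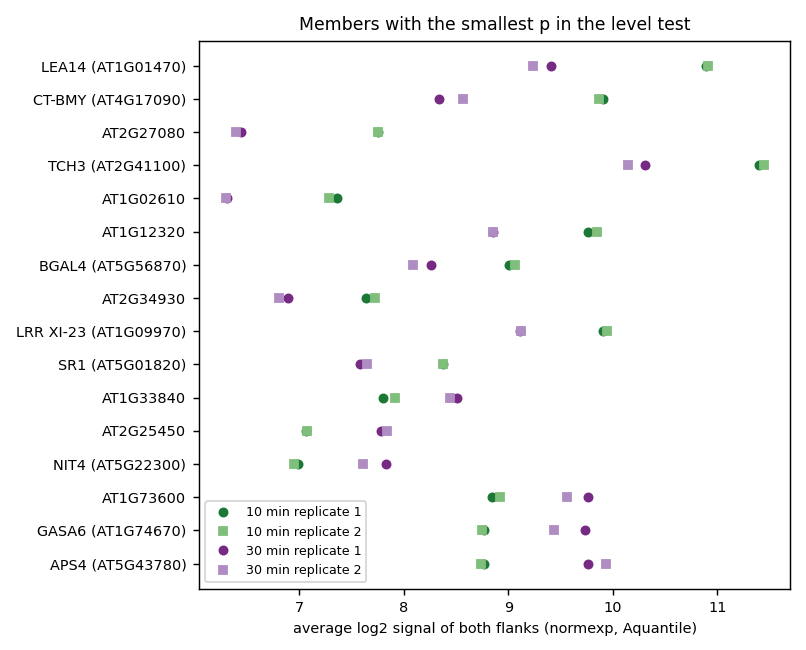
Average log2 signal of both flanks (x axis) on each array for the 10 members with the smallest p among those lower at 30 min and the 6 members higher at 30 min. Green symbols are the 10 min arrays and purple symbols the 30 min arrays, circles replicate 1 and squares replicate 2. The genes were chosen by their p, and LEA14 shows the largest change (-1.58).

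Of the 25 members with the largest switch, 5 were called in level (AT4G33420, AT1G02610, AT2G38600 and AT2G27080 lower, GASA6 higher). The 5 largest switches were not among the calls, with NRT1.5 at -0.35 ± 0.09 (limma adjusted p = 0.0911), from 6.80 and 6.63 to 6.35 and 6.39. MT1A changed by -0.12 ± 0.10, MYB7 by -0.12 ± 0.08, ICK1 by 0.08 ± 0.08 and ABCB13 by 0.07 ± 0.08, none past the test. The change of NRT1.5 was -0.53 (limma adjusted p = 0.0512) with a background offset of 16 in place of 50, and -0.76 (limma adjusted p = 0.0479) with the deposited processed signals; over all alternatives its adjusted p ran from 0.0415 to 0.766.

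Split by flank, the members' median change from 10 to 30 min was -0.319 in the lower flank and -0.027 in the upper flank, against 0.0457 and 0.0381 for all probes well above background. These values contain the ratios that chose the members, so the lower flank had to lie below the upper flank and no test applies. Of 150 members with values on all arrays, the lower flank was down in 127, and the upper flank was down in 80 and up in 70. In 47 members the lower flank was down and the upper flank up, in 80 both were down and in 23 both were up. MT1A was of the first kind (-0.52 in the lower flank, 0.28 in the upper), as were AT3G19030 (-0.63 and 0.08) and AT2G43050 (-0.41 and 0.16). LEA14 was of the second (-1.77 and -1.38) and APS4 of the third (0.87 and 1.31). These counts go by sign alone, with no margin around 0. The upper flank changed little in some members, such as AT5G62260 (0.01) and NRT1.5 (-0.05), so the first and second kind are not sharply divided. By sign, the same turn of ratio was seen with level courses of 3 kinds.

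**Figure D5:**
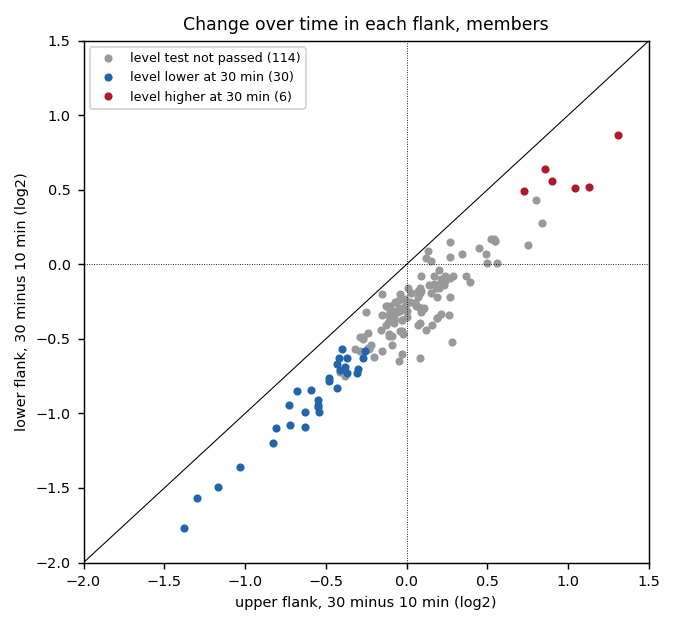
Change from 10 to 30 min in the upper flank (x axis) and in the lower flank (y axis), both log2, for the 150 members with values on all arrays, with the diagonal of equal change. The members lie below the diagonal by the rule that chose them; blue points passed the level test as lower at 30 min (30 of the 31, since AT3G56360 lacked a value), red as higher (6), and grey points did not pass.

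The lists chosen for this tissue placed the level changes beside those of other genes. Over all probes tested, 2.43% were lower and 1.51% higher at 30 min. Of 9 dark and sugar starvation probes 6 were lower (median -0.978), of 12 cold and dehydration probes 8 were lower (-0.794), of 15 clock probes 6 were lower and 1 higher (-0.342), and of 22 early auxin response probes 8 were lower and 1 higher (-0.266). In the other direction, 7 of 16 probes for methionine-derived glucosinolates (0.575) and 4 of 10 for flavonoid synthesis (0.349) were higher and 0 were lower. None of these 6 lists held a member, but the lists are short and do not cover all genes of a process. LEA14, a member called lower, stood on none of them. In the green cortex and phloem lists no probe was called, with medians of -0.164 and 0.0357, and in the wall-loosening list 1 of 15 was lower. The relation between the members' level changes and those of the lists was not tested.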

How the data were processed

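Arrays of upper and lower flanks at 10 and 30 min (2 per time) were read with Feature Extraction 8.1.1.1, per the file headers. Its processed intensities, deposited per channel, had spatial detrending and linear and LOWESS dye normalization, per the file headers; the authors' deposited log10 ratios of the series table, which differ from the processed-signal ratios on some spots for a reason not traced, served as an alternative. Deposited flags were 0 or 1 per channel, where 1 marked a spot as well above background, and members needed 1 in both channels on all 4 arrays. Members were picked from log2 ratios of the processed intensities. Members, gene lists and families were chosen with earlier results of these data known. Levels were computed from deposited mean and local background intensities with normexp (offset 50), loess and Aquantile in limma 3.58.1 (R 4.3.3), without outlier spots; the fit was tested on simulated data. Depth on arrays is limited by their number, 2 per time. Named genes were the 25 with the largest switch, the 10 with the largest smallest ratio, up to 10 per direction past the level test, members of the lists and the 3 nearest to the threshold on each side. Symbols and neighbours came from RefSeq (TAIR10.1), in which 155 of 157 loci were found; 3 probes name several loci. Same-numbered arrays deviated from their group means in opposite directions (correlation -0.287). This does not settle whether they share plants or handling, and the number also goes with the dye orientation. The main fit had no replicate block, and the block was run as an alternative. No source used here names the genome build of the annotation, and no probe or promoter sequence was used.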

Additional observations from a re-analysis of the deposited data

Results flagged for a closer look

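The turn of flank between the times was set by the rule for all 157 members, whose ratios lay above 0 on both 10 min arrays and below 0 on both 30 min arrays; the difference was not tested, because it chose them. Among the gene lists, the median ratio had 1 sign on both 10 min arrays and the other on both 30 min arrays in several, and none of these differences was tested. The 10 min median minus the 30 min median was 0.242 for phloem and cambium, 0.204 for green cortex, 0.139 for nitrate and ammonium assimilation, 0.137 for cell wall loosening, 0.081 for the Calvin cycle and Rubisco, and 0.031 for the endodermis. It had the opposite direction for the cytosolic ribosome (-0.22), touch and rapid stress (-0.049) and flavonoid synthesis (-0.039).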

How the results depend on the processing

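The number of members depended on the processing more than the direction of their ratios did. In place of 157, the rule gave 67 probes with normexp (offset 50) and loess, all of them members, 104 with an offset of 16 (99 members) and 35 without loess (27 members), and 506, 56 and 21 at thresholds of 0.05, 0.15 and 0.2; on 3 arrays it gave 224 to 349. The signs held on all 4 arrays for 146 of 150 members with loess and for 91 of 150 without it. The 37 level calls became 49 with the replicate number as a block, when 1806 of all probes were called, and 24 (without the first 10 min array) to 73 (without the second 30 min array, when 28% of all probes were called) with 1 array left out, where the lone array is assumed to vary like the others; with the crossed pairing, chosen after seeing the data, 59 members and 2315 probes were called. The members' median level change of -0.173 was -0.209 with an offset of 16, -0.264 with the processed signals, -0.205 within the pair of brighter local background (also added after seeing the data) and -0.148 to -0.209 with 1 array left out. For 45 named members under 13 alternatives, 563 of 585 comparisons kept direction and side of the threshold, 7 lost the call, 15 gained it and 0 reversed. The causes were not tested. With 2 arrays per time and no unstimulated stem, small ratios at 10 min are the least secure.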
